A study of Saccharomyces cerevisiae with 16 samples.

Results

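The 42 genes described here encode proteins of the yeast spliceosome, and they were chosen by name from the 6697 coding sequences (CDS) counted in the series: the listed PRP genes, SNP1, MUD1, MUD2, MSL5, CUS1, HSH155, the Sm proteins, members of the Prp19 complex and the RNA helicases of the splicing cycle. RNA of Saccharomyces cerevisiae came from 8 samples. Each gave 1 library of polyadenylated RNA (polyA) and 1 library of total RNA depleted of ribosomal RNA (ribodepleted), 16 libraries in all. The study asked how stress acts on splicing, above all in ribosomal protein genes, so these genes show whether the transcripts of the splicing machinery itself moved.

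Wild-type cells (labelled WT) were grown in rich medium with LiCl or myriocin (0.32 µg/ml) or fenpropimorph (0.85 µM) at their IC50, the dose near half-maximal growth inhibition, or with 0.4 M NaCl or 20% glucose. These 5 wild-type cultures had no drug-free partner among the libraries, so every difference is between cultures under different stressors. NaCl and glucose were each used at a single concentration that was not selected by growth inhibition. The paper describes its 20% glucose culture as late exponential and its LiCl culture as mid-exponential. Stressor and growth therefore cannot be told apart in comparisons with the glucose or NaCl culture. Lithium and sodium chloride give salt and osmotic stress, whereas myriocin and fenpropimorph inhibit the synthesis of membrane lipids, sphingolipids and ergosterol respectively. A further LiCl culture carried a genotype labelled as RPS22B-GFP with its 5′ UTR intron deleted. The remaining samples were LiCl-treated RPS22B-GFP cells sorted into GFP high and GFP low populations, with HOdelta::TDH3pr-mCherry-natMX4 added in the genotype label of the ribodepleted libraries only. RPS22B is a ribosomal protein gene. The methods give the sorted cells a shorter LiCl exposure than the cultures, and the labels do not.

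CDS read totals lay between 29557254 and 50337762 in the polyA and between 36377857 and 53234402 in the ribodepleted libraries. A marker check set the strains apart. LYS2 had between 4741 and 13584 reads in the wild-type cultures and at most 5 in the intron-deletion and sorted libraries, whereas MET17 had at most 1 read in the former and between 1225 and 40541 in the latter. Genotype, growth and LiCl exposure therefore cannot be told apart where those 3 samples are compared with wild-type cultures. With 1 library per condition and library type, differences between conditions had no replicate check, no p-value was computed for them, and the 95% intervals given cover counting error only.

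Pre-mRNA splicing removes introns in a pair of cutting and joining reactions carried out by 5 small nuclear RNAs and their proteins. The U1 particle binds the 5′ splice site, U2 binds the branch site, and the U4/U6.U5 tri-snRNP then joins. RNA helicases drive each rearrangement, the Prp19 complex stabilizes the active centre, and other factors carry out the second step and take the machine apart. In budding yeast few genes have introns, but they include many ribosomal protein genes, whose transcripts make up much of the splicing load.

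Only 2 of the 42 genes have an annotated CDS intron in the intron count table, MUD1 and SMD2, and none has a counted 5′ UTR intron. MUD1 (YBR119W) encodes a U1 protein related to the A protein of the human U1 particle, and SMD2 (YLR275W) a protein of the Sm ring. Their splice sites are shown because intron signal was measured for them. The sequences were read from the RefSeq R64 genome, in the sense of the gene, and capitals mark in turn the first 6 intron bases, the branch motif TACTAAC and the last 3 intron bases. The first exon is short: it holds 8 coding bases in MUD1 and 5 in SMD2, from the start codon at the left end of each first line.
MUD1 5′ splice site: atgtcagcGTATGTatataccttgtaat
SMD2 5′ splice site: atgtcGTATGTttgatcttaaccat
MUD1 branch site: cttctttcTACTAACgttttcat
SMD2 branch site: tttttataTACTAACttaaaagt
MUD1 3′ splice site: tctatgaccaataaaaaCAGactgtacttt
SMD2 3′ splice site: attgatttgtatctttcCAGttcacaaata

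The MUD1 intron spans positions 479346 to 479434 of chromosome II (89 bp, plus strand), and the SMD2 intron positions 694383 to 694472 of chromosome XII (90 bp, plus strand). Both are shorter than the median of 141 bp over 283 introns in nuclear genes of the CDS table. Both begin with GTATGT, as 72.4% of those introns do, both hold TACTAAC, as 82.3% do, and both end in CAG, the ending of 43.8%. The branch motif ends 38 bases before the end of the MUD1 intron and 29 bases before that of SMD2.

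Most of the spliceosome protein genes were expressed at modest levels. Levels were taken as reads per 1000000 library reads (CPM), with library sizes scaled within each library type with the trimmed mean of M-values (TMM) method. Per kilobase of CDS and as medians over the 5 wild-type cultures, members had a median of 29.6 CPM per kb in polyA libraries, beside 45.4 over all 6602 tested genes. In ribodepleted libraries these medians were 14.5 and 22.4 CPM per kb. All 42 genes passed the filter of a mean of at least 10 reads in each library type, and the lowest count of any member in any library was 152 reads.

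SUB2 and PRP43, both RNA helicases, led in both library types. SUB2 (YDL084W, chromosome IV, 305237 to 306577) encodes a DEAD-box protein that acts in early spliceosome assembly and in mRNA export, and its level was 467 CPM per kb in polyA and 243 in ribodepleted libraries. PRP43 (YGL120C, chromosome VII, 281634 to 283937) encodes the helicase that dismantles the spliceosome and also works in ribosome assembly, and it stood at 160 and 79.6 CPM per kb. The next rank differed between the library types. It went to SMD3, an Sm protein gene, at 94.2 CPM per kb in polyA, and to PRP8, the central U5 protein gene, at 42.3 in ribodepleted libraries. The lowest polyA levels belonged to HSH155 (17.1 CPM per kb), PRP8 (17.4) and BRR2 (17.7), and the lowest ribodepleted levels to CUS1 (6.73), PRP28 (7.09) and PRP38 (7.26). PRP8 was thus at rank 41 of 42 in one library type and at rank 3 in the other.

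Across the 5 wild-type cultures the levels of most of these genes moved little. In 35 of 42 genes the highest culture was less than 2-fold above the lowest in both library types, whereas 35.4% of all tested genes met that limit. The median range from the lowest to the highest culture was 1.54-fold over members in either library type, and 2.2-fold in polyA and 2.19-fold in ribodepleted libraries over all tested genes. The exceptions were SUB2, with ranges of 3.48-fold and 4.72-fold in polyA and ribodepleted libraries, PRP43 (3.32-fold and 3.62-fold), MUD1 (2.69-fold and 3.36-fold), and 4 genes that passed 2-fold in polyA libraries alone: PRP39, SMB1, CUS1 and PRP31. At the other end lay SNP1, which encodes the U1-70K protein of U1, at 1.13-fold and 1.34-fold, and PRP21 of U2, at 1.43-fold and 1.07-fold.

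**Figure D1:**
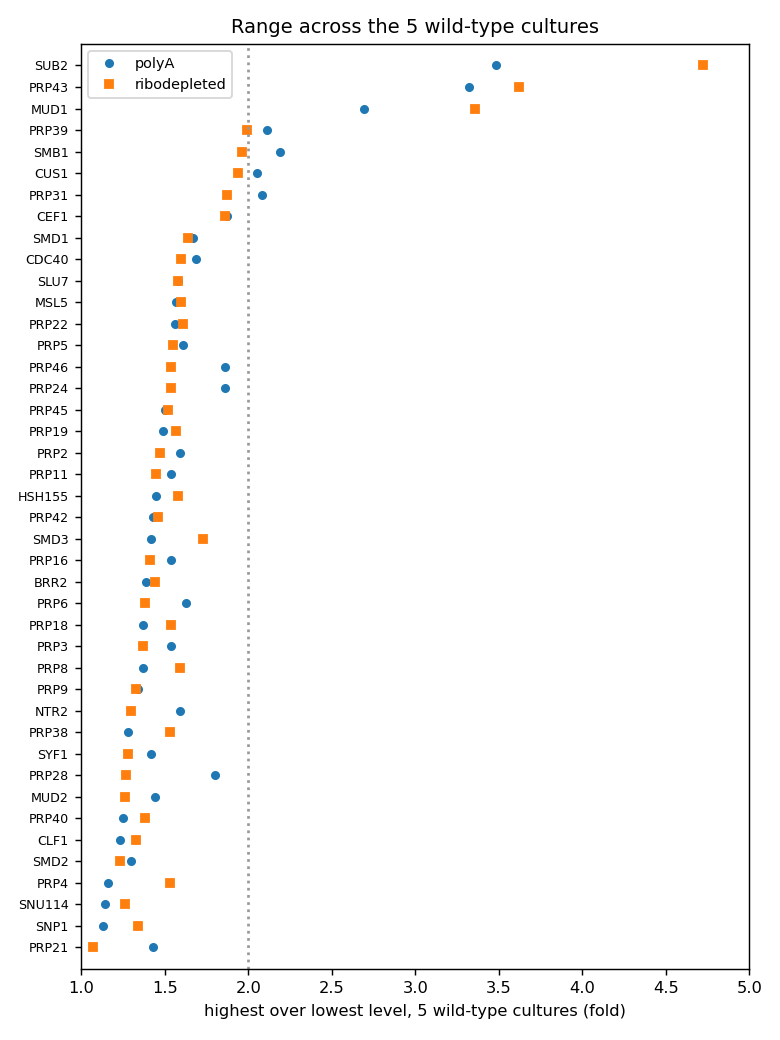
Highest over lowest TMM-scaled level across the 5 wild-type cultures (horizontal axis, fold) for each of the 42 genes, with circles for polyA and squares for ribodepleted libraries and a dotted line at 2-fold. SUB2, PRP43 and MUD1 lie past the line in both library types and 35 genes lie below it in both.

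SUB2 and PRP43 were the genes at least 2-fold lower in LiCl than in other stressors, PRP43 not against fenpropimorph. No role group had a median change of 2-fold. A gene was taken as changed when its level differed at least 2-fold in the same direction in both library types. Against myriocin, 0 genes were higher and 2 lower, with backgrounds of 12.4% higher and 11.9% lower among the 6602 tested genes. Against fenpropimorph, 0 were higher and 1 lower (backgrounds 10.5% and 10.2%). Against NaCl, 0 were higher and 2 lower (backgrounds 18.4% and 16%), and against glucose 1 was higher and 2 lower (backgrounds 15% and 12.4%).

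The complement of those counts shows the same. Against myriocin 33 of 42 genes differed by less than 1.5-fold in both library types, against a background of 41.1%. The count was 33 against fenpropimorph (background 46.6%), 27 against NaCl (background 31.2%) and 31 against glucose (background 33.9%). Restricting the background to the 5606 genes with at least as many reads as the lowest member left it at 42.2%, 47.8%, 31.8% and 35.1% in the same order. The median log2 change over the members was 0.00 in polyA and 0.03 in ribodepleted libraries against myriocin, 0.15 and 0.16 against fenpropimorph, −0.09 and −0.01 against NaCl, and −0.07 and 0.07 against glucose. The medians over all tested genes lay within 0.03 of 0 in these comparisons.

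**Figure D2:**
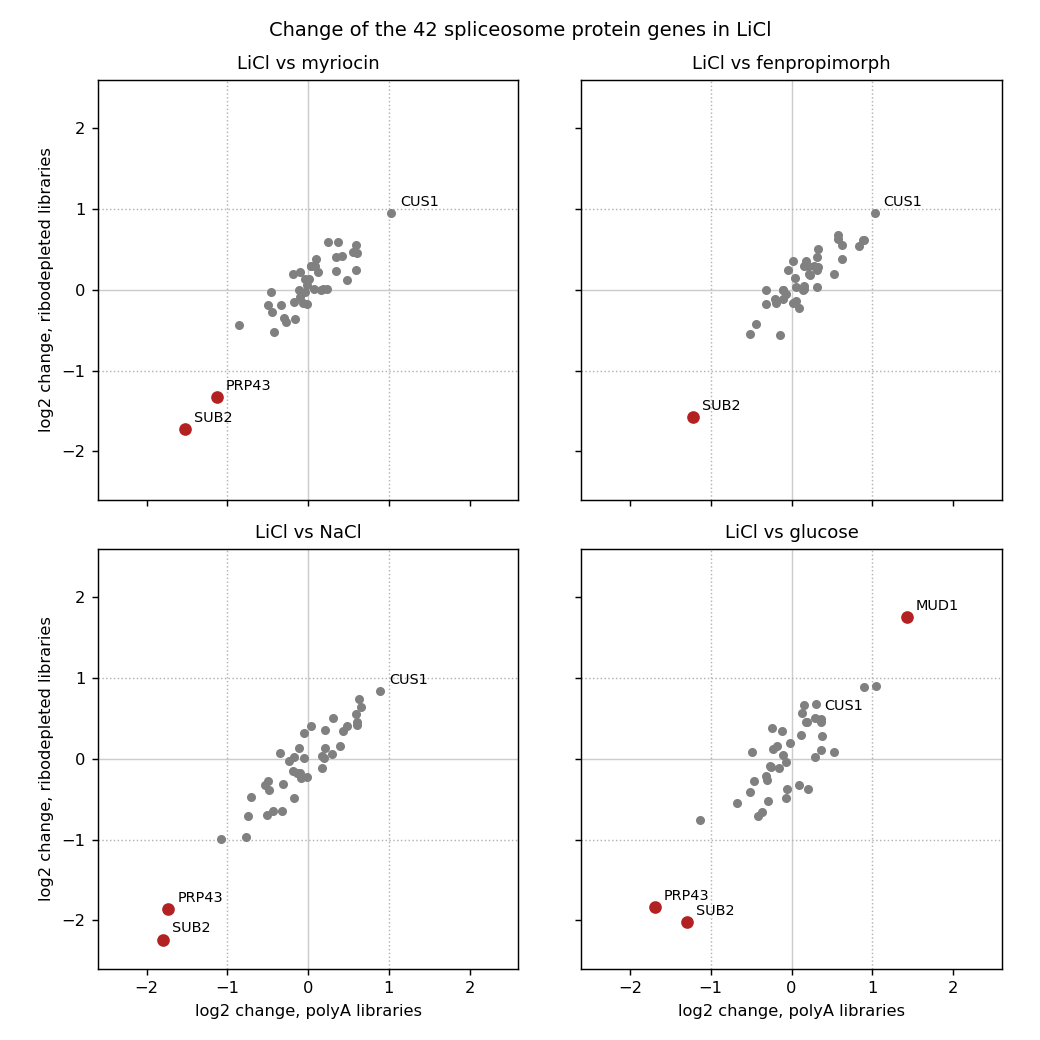
Log2 change in LiCl relative to each of the other 4 wild-type cultures in polyA (horizontal) and ribodepleted libraries (vertical), 1 point per gene, with dotted lines at 2-fold and red points for genes past 2-fold in both. SUB2 is red in all panels, PRP43 in 3 and MUD1 in the glucose panel only.

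SUB2 was lower in LiCl than in each of the other wild-type cultures. Its polyA level was 255 CPM in LiCl, 886 in NaCl, 626 in glucose, 731 in myriocin and 595 in fenpropimorph. It was 270 CPM in the LiCl culture with the intron deletion and 209 and 205 in the sorted GFP high and GFP low cells. In ribodepleted libraries SUB2 had 98 CPM in LiCl, 463 in NaCl, 398 in glucose, 326 in myriocin and 294 in fenpropimorph, with 105 in the intron-deletion culture and 109 and 95.5 in the sorted cells. All 4 LiCl samples were thus below all 4 others in both library types. The share of all tested genes that separate these samples in this way is not given here, and the LiCl samples differ in strain and exposure.

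The log2 change of SUB2 in LiCl was −1.52 (95% counting interval −1.55 to −1.49) against myriocin in polyA and −1.73 (−1.78 to −1.68) in ribodepleted libraries. It was −1.22 and −1.58 against fenpropimorph, −1.80 and −2.24 against NaCl, and −1.30 and −2.02 against glucose, in the same order of library types. With the intron-deletion culture in place of wild-type LiCl, an alternative chosen after the data were seen, SUB2 still met the limit against all 4, from −1.14 in polyA against fenpropimorph to −2.14 in ribodepleted libraries against NaCl.

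PRP43 was spread more widely. Its polyA level was 169 CPM in LiCl, 561 in NaCl, 544 in glucose, 369 in myriocin and 186 in fenpropimorph, then 102 in the intron-deletion culture and 12 and 8.74 in sorted GFP high and GFP low cells. Its ribodepleted level was 72.7 CPM in LiCl, 263 in NaCl, 261 in glucose, 183 in myriocin and 107 in fenpropimorph, then 45.9 in the intron-deletion culture and 19.8 and 16.9 in the sorted cells. The order of the 5 wild-type cultures was the same in both library types, with LiCl lowest and fenpropimorph next, but the polyA difference between those was small.

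The log2 change of PRP43 in LiCl was −1.13 (−1.17 to −1.09) and −1.33 (−1.39 to −1.27) against myriocin, −1.73 and −1.86 against NaCl, and −1.69 and −1.84 against glucose. Scaling by total CDS reads in place of TMM put the polyA change against myriocin at −0.79, which ended that call. The 137 ribosomal protein genes, listed by symbol, had median log2 changes in LiCl of −2.45 and −2.82 against myriocin, −1.73 and −2.38 against fenpropimorph, −2.69 and −3.39 against NaCl, and −1.47 and −1.83 against glucose. Whether SUB2 and PRP43 moved with those genes for a common reason was not tested.

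The DNA before these helicase genes was searched for the PAC element (GATGAG) and the RRPE element (AAAAATTT), which in yeast are found before many ribosome biogenesis genes. Within 300 bases before the start codon, on either strand, PRP43 holds both and SUB2 holds PAC. The stretches below are printed in the sense of the gene, with the element in capitals.
PRP43, RRPE, chrVII:284058-284085, minus strand: ggtgcctctgAAAAATTTtcaaatgcga
PRP43, PAC, chrVII:284042-284067, minus strand: tcaaatgcgaGATGAGgtgaaaagaa
SUB2, PAC, chrIV:305149-305174, plus strand: cgttactattCTCATCggtataacta
The SUB2 match reads in the opposite sense. Of the 42 genes, 9 hold PAC, beside 19% of 6668 such regions before CDS, and 8 hold RRPE, beside 14.3%. Besides PRP43, CDC40 holds both, and its level range over the wild-type cultures was 1.69-fold in polyA libraries. A match describes the letters only.

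Among the U1 genes, MUD1 was lowest in glucose and highest in the sorted cells. Its polyA level was 51.7 CPM in LiCl, 33.3 in NaCl, 19.2 in glucose, 48.4 in myriocin, 41.6 in fenpropimorph, 52.9 in the intron-deletion culture, and 139 and 123 in sorted GFP high and GFP low cells. The ribodepleted level was 18.1 CPM in LiCl, 10.8 in NaCl, 5.37 in glucose, 14.8 in myriocin, 15.3 in fenpropimorph, 17.6 in the intron-deletion culture, and 57.6 and 44.8 in the sorted cells. MUD1 was 1.43 (1.30 to 1.55) and 1.75 (1.53 to 1.97) higher in LiCl than in glucose on the log2 scale. That was the one increase past 2-fold among these genes in the 4 LiCl comparisons, and those cultures also differed in growth phase.

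The other U1 genes differed less. PRP39, PRP40 and PRP42 encode further U1 proteins, as does SNP1. PRP39 was highest in NaCl (75.8 CPM in polyA, 37.6 in ribodepleted) and its medians over the 8 libraries were 37.4 and 19.6, with the lowest values, 25.2 and 12.5, in sorted GFP low cells. Its log2 change in LiCl relative to NaCl was −1.08 and −0.99, just short of the limit in ribodepleted libraries. It met the limit in both library types with DESeq2 size factors (−1.11 and −1.03), with TMM without ribosomal protein genes (−1.09 and −1.04) and with the intron-deletion culture in place of LiCl (−1.25 and −1.22). Scaling by total CDS reads gave −0.67 and −1.37, short of the limit in polyA libraries. PRP42 was lower in LiCl than in fenpropimorph by log2 values of −0.51 and −0.55. It ran from 34.3 to 84.2 CPM with a median of 49.4 in polyA and from 14.6 to 31.2 with a median of 21.9 in ribodepleted libraries, with a sorted sample highest in each. PRP40 ran from 67.2 to 123 CPM (median 83.5) and from 24.8 to 45.4 (median 33.1), and a sorted sample was again highest. The median log2 change of the 5 U1 genes stayed between −0.17 and 0.16 in all 4 LiCl comparisons.

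CUS1 (YMR240C, chromosome XIII, 749930 to 751240) came nearest to an increase shared across the LiCl comparisons. It encodes a subunit of the U2 complex SF3b. Its polyA level was 66.7 CPM in LiCl, 35.9 in NaCl, 54.7 in glucose, 32.7 in myriocin, 32.6 in fenpropimorph, 48.5 in the intron-deletion culture and 55.2 and 51.1 in sorted GFP high and GFP low cells. In ribodepleted libraries it had 15.8 CPM in LiCl, 8.82 in NaCl, 11.1 in glucose, 8.19 in myriocin, 8.15 in fenpropimorph, 12.4 in the intron-deletion culture and 13.7 and 14 in the sorted cells. LiCl was the highest library of each type.

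The log2 change of CUS1 in LiCl was 1.03 (0.94 to 1.12) and 0.95 (0.76 to 1.13) against myriocin and 1.03 (0.94 to 1.13) and 0.95 (0.77 to 1.14) against fenpropimorph. It was 0.89 and 0.84 against NaCl, and 0.29 and 0.51 against glucose. Against myriocin and fenpropimorph it thus lay just outside the 2-fold limit in ribodepleted libraries, with intervals that cover values on either side of it. With the intron-deletion culture in place of LiCl these values were 0.57 and 0.60 against myriocin.

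The remaining genes of U2 and branch-site recognition are MSL5, for the branch-point binding protein, MUD2, for its partner, HSH155, for the SF3b subunit that holds the branch helix, and PRP9, PRP11 and PRP21, for SF3a. Of the 7 genes of this group, 6 differed by less than 1.5-fold in both library types in each LiCl comparison, the exception being CUS1 in the myriocin, fenpropimorph and NaCl comparisons and MSL5 (0.30 and 0.68) in the glucose comparison. PRP11 ran from 12.3 CPM in sorted GFP low cells to 45.5 in glucose in polyA libraries (median 33.2), and from 4.52 to 11.4 (median 8.65) in ribodepleted libraries, at the same extremes. HSH155 ran from 33.4 to 68 CPM (median 48.1) in polyA and from 20.9 to 47.1 (median 31.4) in ribodepleted libraries, with sorted GFP high cells lowest in each.

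The Sm proteins form the ring that binds the small nuclear RNAs. SMB1, SMD1, SMD2 and SMD3 were measured, and none met the 2-fold limit. Their median log2 change in LiCl was −0.62 and −0.71 against NaCl, −0.41 and −0.19 against myriocin, −0.27 and −0.15 against fenpropimorph, and −0.40 and −0.06 against glucose. SMB1 had the largest difference of them, −0.77 and −0.97 against NaCl, −1.13 and −0.76 against glucose, and −0.85 and −0.44 against myriocin. It ran from 29.3 to 64.3 CPM (median 48.8) in polyA and from 9.63 to 18.9 (median 13) in ribodepleted libraries, and both LiCl cultures stood lowest. SMD3 ran from 14.9 to 29.1 CPM (median 23) and from 3.21 to 8.78 (median 5.23), with sorted GFP high cells lowest and NaCl highest in each library type.

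SMD2 had a polyA level of 26.4 CPM in LiCl, 27.3 in NaCl, 30.9 in glucose, 25.8 in myriocin, 23.7 in fenpropimorph, 23.4 in the intron-deletion culture, and 18.8 and 20 in sorted GFP high and GFP low cells. Its ribodepleted level was 8.78 CPM in LiCl, 8.75 in NaCl, 8.09 in glucose, 7.15 in myriocin, 7.13 in fenpropimorph, 7.11 in the intron-deletion culture and 4.84 and 4.6 in the sorted cells. The sorted cells were lowest in both library types, and the cultures lay close together.

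The tri-snRNP genes were PRP8, SNU114, which encodes the U5 GTPase, PRP3, PRP4, PRP6, PRP31 and PRP38, for proteins of U4/U6.U5, and PRP24, for a factor that anneals U4 to U6. None of these 8 met the 2-fold limit, and their median log2 change in LiCl stayed between −0.12 and 0.07 over the 4 comparisons and both library types. PRP31 came closest, at 1.05 (0.93 to 1.18) and 0.90 (0.74 to 1.07) against glucose. PRP31 was lowest in glucose (19.2 CPM in polyA, 11 in ribodepleted), highest in LiCl (39.9 and 20.5), and had medians of 31.7 and 16.6. PRP24 was 0.90 and 0.62 higher on the log2 scale in LiCl than in fenpropimorph, and LiCl was its highest polyA library, at 37.7 CPM with a median of 28.2 and a lowest value of 20.2. PRP4 was steady over the wild-type cultures, within 1.16-fold in polyA and 1.53-fold in ribodepleted libraries.

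None of the other 6 helicase genes met the 2-fold limit. PRP5 and PRP28 act in assembly, BRR2 unwinds U4 from U6, PRP2 acts before the first reaction, PRP16 between the reactions, and PRP22 releases the mRNA. PRP5 was 0.55 and 0.47 higher in LiCl than in myriocin and 0.59 and 0.55 higher than in NaCl, on the log2 scale. It ran from 56.6 to 102 CPM (median 83.6) in polyA and from 21.9 to 37.6 (median 33) in ribodepleted libraries. PRP2 was lower in LiCl than in glucose, at −0.67 and −0.55, where its levels were highest, 87.3 and 52.4 CPM, beside medians of 59.1 and 35.7 and lowest values of 44 and 28.4 in the intron-deletion culture.

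In the Prp19 complex, PRP19 encodes the ubiquitin ligase that names it, CEF1, CLF1 and SYF1 its scaffold proteins, and PRP45 and PRP46 associated factors. PRP46 (YPL151C) was 0.59 and 0.55 higher in LiCl than in myriocin, 0.89 and 0.62 higher than in fenpropimorph and 0.37 and 0.46 higher than in glucose, all short of the limit. CEF1 was 0.60 and 0.45 higher in LiCl than in myriocin and 0.90 and 0.89 higher than in glucose, where it was lowest, at 31.1 and 17.1 CPM. The highest CEF1 levels, 68.8 and 36.2 CPM, were in sorted GFP high cells, and the medians were 40.6 and 25.2.

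The genes of the second step and of disassembly were PRP18, SLU7 and CDC40 (Prp17), which act in the second reaction, and NTR2, a partner of the Prp43 helicase. Their median log2 change in LiCl was 0.17 and 0.17 against myriocin and 0.31 and 0.40 against fenpropimorph, and none reached 2-fold. SLU7 was 0.66 and 0.64 higher in LiCl than in NaCl and ran from 33.5 to 92.1 CPM (median 50.3) in polyA and from 17.5 to 42.1 (median 23.5) in ribodepleted libraries. CDC40 was 0.57 and 0.68 higher in LiCl than in fenpropimorph, ran from 34.6 to 68.8 CPM (median 50.3) and from 16.4 to 26.3 (median 20.7), and was lowest in a different sample in each library type.

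The 54 other splicing genes, a list of further splicing and snRNP genes, were used for comparison. Between 24 and 33 of the 54 differed by less than 1.5-fold in both library types in the 4 LiCl comparisons. In LiCl 3 of them were at least 2-fold higher and 2 lower against myriocin, 3 and 2 against fenpropimorph, 1 and 4 against NaCl, and 1 and 2 against glucose.

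Myriocin and fenpropimorph, the pair of drugs that act on membrane lipids, differed least among the wild-type comparisons. Between them 0 of 42 genes were higher or lower, with backgrounds of 1.94% higher and 3.27% lower, and 41 of 42 differed by less than 1.5-fold in both library types (background 71.4%). The gene outside that range was PRP43, which was 0.99 (0.95 to 1.03) and 0.77 (0.72 to 0.83) higher in myriocin on the log2 scale. CDC40 (0.45 and 0.46) and PRP11 (0.39 and 0.44) followed. The largest differences in the other direction were PRP22 (−0.17 and −0.29), PRP4 (−0.17 and −0.18) and PRP42 (−0.24 and −0.14).

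The intron-deletion culture in LiCl had slightly lower levels of most of these genes than wild-type cells in LiCl. The median log2 change was −0.23 in polyA and −0.22 in ribodepleted libraries, against −0.01 and 0.00 over all tested genes, and 32 of 42 genes were lower in both library types (background 41.8%). None met the 2-fold limit in either direction (backgrounds 1.27% higher and 1.15% lower), and 40 of 42 differed by less than 1.5-fold (background 82.2%). The lowest were PRP43 at −0.73 (−0.78 to −0.67) and −0.66 (−0.75 to −0.58), PRP11 at −0.71 and −0.40, and CUS1 at −0.46 and −0.34. PRP18 (0.13 and 0.13), SUB2 (0.09 and 0.10) and SLU7 (0.08 and 0.10) were highest. Ribosomal protein genes had medians of −0.40 and −0.21 in the same comparison, and the other splicing genes −0.14 and −0.07.

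Cells sorted for high and for low Rps22B-GFP showed no 2-fold difference in any of these genes. The backgrounds were 0% higher and 0.0757% lower in GFP high cells, and all 42 genes differed by less than 1.5-fold in both library types (background 90.3%). PRP11 differed most, at 0.41 (0.24 to 0.57) and 0.39 (0.13 to 0.64), followed by PRP40 (0.26 and 0.24) and PRP43 (0.46 and 0.23). The largest differences in the other direction were SMD3 (−0.25 and −0.22), HSH155 (−0.14 and −0.16) and PRP45 (−0.14 and −0.09). Median log2 values over the members were 0.06 and 0.08.

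The sorted samples themselves stood apart from the LiCl cultures in a few genes. This comparison was added after the values had been seen: a gene was taken as changed when each sorted sample differed at least 2-fold in the same direction from both the wild-type and the intron-deletion LiCl culture, in both library types, 8 ratios in all. PRP46 and MUD1 were higher (background 5.79%) and PRP43 was lower (background 6.5%), so neither count exceeded the background share. Over the 42 genes the median of the mean log2 difference was 0.05 in polyA and −0.06 in ribodepleted libraries, beside 0.02 and −0.03 over all tested genes.

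PRP46 showed the largest increase. Its polyA level was 614 and 598 CPM in sorted GFP high and GFP low cells, 75.2 in LiCl and 56.8 in the intron-deletion culture, and 54 in NaCl, 58.2 in glucose, 50.1 in myriocin and 40.5 in fenpropimorph. In ribodepleted libraries it had 163 and 147 CPM in the sorted cells, 23.5 in LiCl, 19.1 in the intron-deletion culture, 17.7 in NaCl, 17.1 in glucose, 16.1 in myriocin and 15.3 in fenpropimorph. The sorted and unsorted samples did not overlap, but the share of all tested genes that separate them so is not given here. The mean log2 difference was 3.21 in polyA and 2.87 in ribodepleted libraries, and the 8 ratios ran from 2.64 to 3.43.

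PRP46 lies on the minus strand of chromosome XVI, at 266180 to 267535, and no other CDS of the table overlaps it. The adjacent genes moved less: RRD2, on the side of its 3′ end, had mean log2 differences of 1.14 and 0.67, and YPL150W, on the side of its 5′ end, 0.86 and 0.61. Beyond RRD2, the short YPL152W-A was higher by 2.27 and 3.07, from at most 55 reads in any of these LiCl libraries. PRP45 (YAL032C) was also higher in the sorted cells, by 1.62 and 0.96, and PRP42 by 1.21 and 0.82, both short of the limit in ribodepleted libraries. MUD1 was higher by 1.32 and 1.51.

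PRP43 was lower in the sorted cells by a mean log2 difference of −3.67 in polyA and −1.66 in ribodepleted libraries, with ratios from −4.27 to −1.21. Reads of PRP43 numbered 414 and 403 in the sorted polyA libraries and 939 and 841 in the sorted ribodepleted libraries, against 8649 and 3337 in wild-type LiCl. The size of the difference depended on the library type, and so it did for ribosomal protein genes, with medians of −3.40 and −1.11. GPG1, the gene next to the 3′ end of PRP43, had mean log2 differences of −3.08 and −2.83, and COQ8 on the other side −0.62 and −0.80. SUB2 was at −0.34 and 0.01. In LiCl relative to NaCl, GPG1 and PRP43 went opposite ways, with log2 changes of 6.51 and 5.71 for GPG1 and −1.73 and −1.86 for PRP43. Marker reads were compared without scaling for library size. Of 5 meiotic genes examined, IME2 and SPO11 had more reads in both sorted libraries of each type than in any other, led by IME2 at 1557 to 3390 against 159 to 739. IME1 was too close to call in ribodepleted libraries, with 605 reads in sorted GFP low cells and 598 in fenpropimorph. NDT80 and SPO13 did not separate the samples in both library types. Of 4 genes of the a mating type, MFA1, STE2 and BAR1 had fewer reads in the sorted libraries of each type than in any other. MFA2 was too close to call in polyA libraries, with 4194 reads in sorted GFP low cells and 4138 in fenpropimorph. Of the alpha mating type genes, MF(ALPHA)1 had 1656 and 399 reads (polyA and ribodepleted) in wild-type LiCl and 800 and 240 in the intron-deletion culture. It had 27 and 40 in the sorted polyA libraries, 14 and 19 in the sorted ribodepleted libraries, and 4 to 14 in the other wild-type cultures. STE3 went the other way, with 433 and 306 polyA reads in those LiCl cultures against 572 and 832 in the sorted cells. MF(ALPHA)2 did not separate them, at 424 and 227 against 313 and 513. The part of these genes in the differences was not tested, and strain, sorting and LiCl exposure cannot be told apart here.

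**Figure D3:**
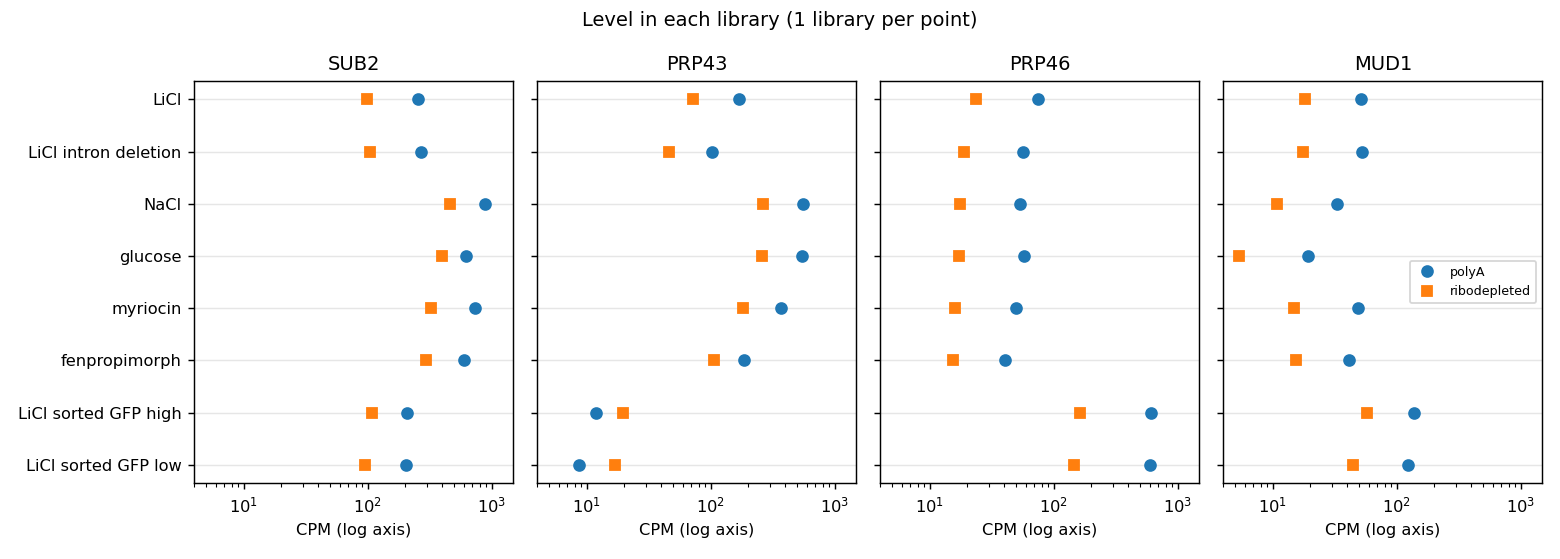
TMM-scaled level in CPM (horizontal log axis) of SUB2, PRP43, PRP46 and MUD1 in each of the 8 RNA samples, 1 library per point, with circles for polyA and squares for ribodepleted libraries. SUB2 is low in all 4 LiCl samples, PRP43 is lowest in the sorted cells (8.74 CPM in GFP low polyA), and PRP46 is highest there (614 CPM in GFP high polyA).

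PRP8 and a few other genes read differently in the polyA and ribodepleted libraries. The 8 RNA samples, each measured both ways, gave the replicated comparison of the series, fitted over all genes with edgeR's quasi-likelihood test with the RNA sample as a block and Benjamini-Hochberg adjustment. At an adjusted p of 0.05 and 2-fold, 3 of the 42 genes were higher in polyA (background 10.2%) and 2 were lower (background 9.32%), which is close to the background in number. Without the fold limit 35 of 42 passed, beside 74.2% of all tested genes. Library type cannot be told apart from the preparation and sequencing that went with it.

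PRP8 (YHR165C) and BRR2 (YER172C) were the genes lower in polyA, and they have the longest CDS of the list, 7242 and 6492 bp. The log2 difference of PRP8 was −2.09 ± 0.12 (SE, 8 RNA samples, edgeR adjusted p = 7.95e-08), with sample values from −2.43 to −1.63. That of BRR2 was −1.12 ± 0.08 (edgeR adjusted p = 2.58e-07), from −1.55 to −0.87. Both were lower in all 8 samples. With libraries scaled by total CDS reads in place of TMM, PRP8 stayed called at −1.11 and BRR2 did not, at −0.15 (edgeR adjusted p = 0.25). The PRP8 levels behind this were between 106 and 146 CPM in the polyA and between 226 and 378 CPM in the ribodepleted libraries, and those of BRR2 between 89.2 and 129 and between 87.6 and 155. These levels are scaled within each library type, whereas the fit scaled all 16 libraries together.

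PRP38, CUS1 and SMD3 were higher in polyA. PRP38 (YGR075C) had a log2 difference of 1.48 ± 0.11 (SE, edgeR adjusted p = 3.89e-07), SMD3 (YLR147C) of 1.12 ± 0.09 (edgeR adjusted p = 8.39e-07) and CUS1 of 1.06 ± 0.05 (edgeR adjusted p = 3.76e-08), each positive in all 8 samples. PRP38 ran from 22 to 43.8 CPM in the polyA and from 4.39 to 6.87 CPM in the ribodepleted libraries. The CDS of PRP38 shares 6 bp with that of SMD1 on the other strand, and whether the counting used strand is not given in the sources used here.

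The difference followed CDS length. Members of up to 1 kb had a median log2 difference of 0.79 (11 genes), those of 1 to 2 kb 0.24 (19 genes), those of 2 to 3 kb −0.17 (7 genes) and longer ones −0.60 (5 genes). Over all tested genes the medians were 0.39, 0.09, −0.37 and −0.99 in the same bins. Spearman's rho between length and the difference was −0.57 across the 42 genes and −0.46 across all 6602, as a description across genes that share the same libraries. MSL5 (1431 bp) stood off this trend, at −0.91, and PRP18 (756 bp) at −0.39.

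PRP43 had the widest spread between samples. Its polyA minus ribodepleted difference lay between −0.13 and 0.29 in the 6 unsorted samples and was −1.72 and −1.93 in the sorted GFP high and GFP low cells, and the mean, −0.36 ± 0.27 (SE, edgeR adjusted p = 0.247), missed the threshold. All 5 called genes were called again without the sorted samples, an alternative chosen after the data were seen.

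**Figure D4:**
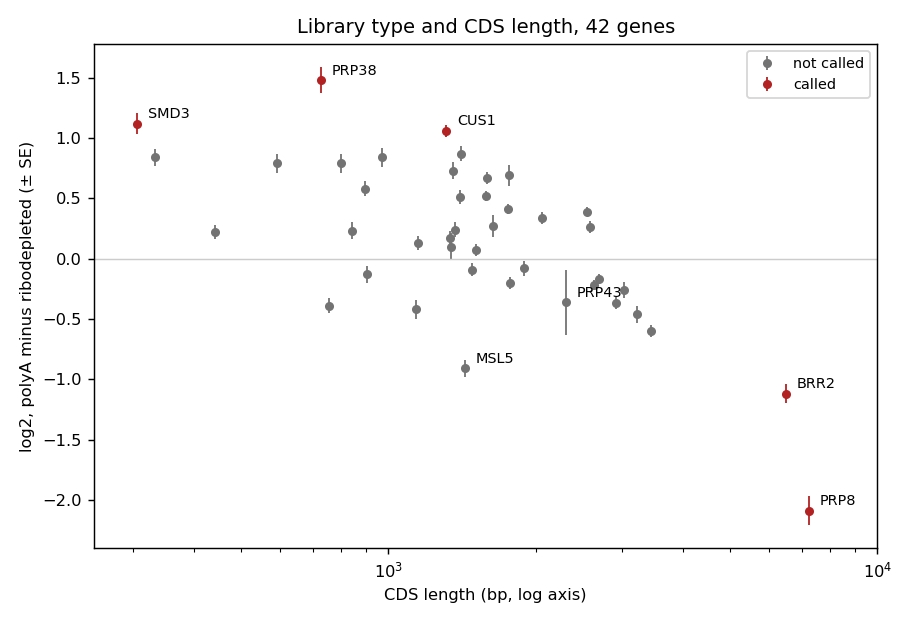
Log2 difference between polyA and ribodepleted libraries (vertical, mean over 8 RNA samples ± SE from edgeR) against CDS length in bp (horizontal log axis) for the 42 genes, with the 5 called genes in red. The longest genes, PRP8 at −2.09 and BRR2 at −1.12, are lowest, and PRP43 has the widest error bar.

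The introns of MUD1 and SMD2 gave the intron signal within this set. Retention was taken as intron reads per bp over CDS reads per bp, in percent, with 95% Wilson intervals for counting error. In polyA libraries the MUD1 value was 23.6% (18.4 to 30.3) in LiCl, 10.7% in NaCl, 1.52% (0.267 to 8.59, from 1 intron read) in glucose, 10.3% in myriocin and 7.95% in fenpropimorph. It was 15.9% in the intron-deletion culture and 16.5% and 15.6% in sorted GFP high and GFP low cells. All 4 LiCl values were above all 4 others, but their intervals overlapped. They were 6.37 to 18 in NaCl and 6.74 to 15.8 in myriocin, beside 11.3 to 22.4 in the intron-deletion culture and 12.6 to 19.3 in sorted GFP low cells.

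SMD2 showed the same order of LiCl and other samples in polyA libraries at lower values. Its retention was 9.85% (7.09 to 13.7) in LiCl, 3.09% in NaCl, 0.692% (0.189 to 2.52, from 2 intron reads) in glucose, 2.37% in myriocin, 2.8% in fenpropimorph, 11.2% in the intron-deletion culture, and 10.3% and 11.6% in the sorted cells. The SMD2 values of LiCl and other samples did not overlap, and neither did the medians over all introns, so this order was not particular to MUD1 or SMD2. The median over all introns that passed the filter of 10 intron and 10 CDS reads was 19.1% in LiCl, 5.76% in NaCl, 2.99% in glucose, 8.17% in myriocin, 6.83% in fenpropimorph, 14.2% in the intron-deletion culture and 28.8% and 24.8% in the sorted cells, so SMD2 lay below the median in every polyA library.

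In ribodepleted libraries the picture differed. MUD1 retention was 112% (90.1 to 139) in LiCl, 94.1% in NaCl, 55.7% (31.4 to 98.9) in glucose, 103% in myriocin, 44.7% in fenpropimorph, 84.3% in the intron-deletion culture, and 53.3% and 58.7% in the sorted cells. These values lay above the median of all introns in each library, which ran from 7.54% to 35.4%, and they did not separate LiCl from the other samples. Values such as 112% cannot be a share of unspliced transcripts, so the ratio describes read density and is not a direct measure of splicing. SMD2 was 8.26% in LiCl, 6.25% in NaCl, 6.79% in glucose, 5.14% in myriocin, 11.3% in fenpropimorph, 5.1% in the intron-deletion culture and 22.6% and 9.69% in the sorted cells, from 4 to 14 intron reads each, which left it below the filter.

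**Figure D5:**
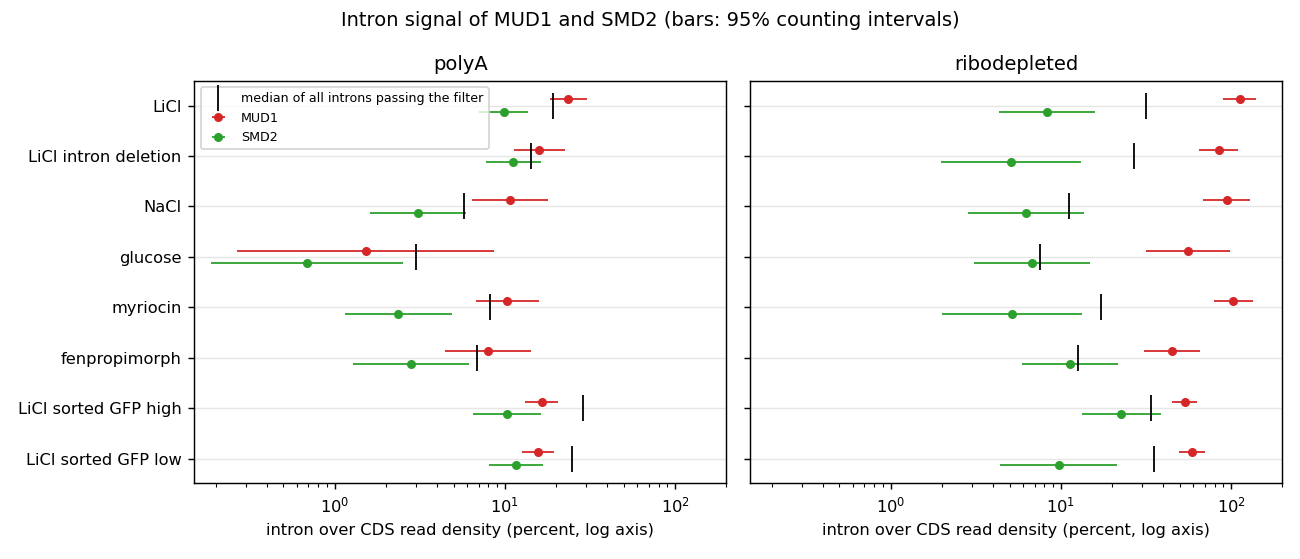
Intron over CDS read density in percent (horizontal log axis) for MUD1 and SMD2 in each RNA sample, polyA libraries on the left and ribodepleted on the right, with 95% Wilson counting intervals and black ticks for the median of all introns that passed the filter. In polyA libraries both introns are above their other values in the LiCl samples, with overlapping intervals for MUD1, and so is the median of all introns. In ribodepleted libraries MUD1 lies above that median throughout.

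The log2 change of MUD1 retention in LiCl in polyA libraries was 1.17 (0.46 to 1.88) against myriocin, 1.52 (0.60 to 2.43) against fenpropimorph, 1.10 (0.27 to 1.93) against NaCl and 3.39 (1.05 to 5.73) against glucose. That of SMD2 was 1.97 (0.84 to 3.11), 1.72 (0.51 to 2.93), 1.62 (0.58 to 2.65) and 3.53 (1.68 to 5.38). The medians over 272 introns were 1.37, 1.61, 1.64 and 2.64, and over the 183 introns outside ribosomal protein genes 0.74, 1.10, 1.11 and 2.04. The intervals of both genes hold the median over all introns in each comparison.

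In ribodepleted libraries MUD1 retention differed by 0.11 (−0.38 to 0.60) against myriocin and 0.24 (−0.32 to 0.79) against NaCl, intervals that lie below the medians of 0.93 and 1.58 over 262 introns. Over the 173 introns outside ribosomal protein genes the medians were 0.23 and 0.59, inside those intervals. Against fenpropimorph MUD1 retention differed by 1.30 (0.68 to 1.93) and against glucose by 0.95 (0.08 to 1.83). The medians there were 1.40 and 1.79 over all introns, and 0.67 and 1.18 outside ribosomal protein genes. MUD1 intron reads were also set against the TMM-scaled library total in place of the CDS reads. That ratio includes the change in MUD1 level, so it is not a change in retention. Its log2 change in LiCl was 0.40 against myriocin, 1.55 against fenpropimorph, 0.98 against NaCl and 2.70 against glucose. In the intron-deletion culture relative to LiCl, and in GFP high relative to GFP low cells, the intervals for both introns included 0 in both library types.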

How the data were processed

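Read counts for CDS, introns and 5′ UTR introns were deposited by the authors without normalization. Per the methods and the submitters' processing notes, paired reads were trimmed with cutadapt, aligned to the R64 genome (HISAT2 is named there) and counted with featureCounts on features drawn from the genome annotation. Gene symbols and intron sequences came from the RefSeq R64 reference, which matched 6014 of 6697 CDS identifiers.

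Counts were scaled within each library type over its 8 libraries with TMM (edgeR 4.0.16). Log2 ratios used 0.5 added reads, for genes with a mean of at least 10 reads in each library type. The library type comparison used edgeR's quasi-likelihood fit with the RNA sample as a block, since both libraries came from the same RNA, and DESeq2 1.42.0 as an alternative. Intervals cover counting error only, and PCR duplicates were not separable. The fold calls and the fit were tested on simulated data. The 42 genes, their role groups and the comparison lists were chosen with earlier results of these data known. Members named with values were those changed in any comparison, those with an intron, the 3 largest increases and decreases per comparison, the called genes and the 3 highest and lowest levels, and outside the leading genes they are given by their range and median over libraries.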

Additional observations from a re-analysis of the deposited data

Results flagged for a closer look

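The polyA minus ribodepleted log2 difference was examined over the 8 RNA samples for the median of the 42 genes and for each gene, 43 measures in all. In 3 of them a single sample lay farther from its nearest neighbour, relative to the whole range, than Dixon's 95% critical value for 8 samples allows, and chance alone passes that value in about 1 of 20 groups. The sample was glucose each time. HSH155 was at −0.69 in glucose with the nearest other sample at −0.41, PRP21 at −0.12 with the nearest at 0.16, and NTR2 at 1.35 with the nearest at 0.88. The causes were not tested.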

How the results depend on the processing

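No value with a call turned its direction in any alternative. Of 152 values of single genes and introns under an alternative, 138 kept their direction and their side of the limit or stayed within their interval. Scaling by total CDS reads in place of TMM shifted the median of all genes in the 7 comparisons of condition by between −0.37 and 0.41 on the log2 scale (both in LiCl relative to NaCl, in ribodepleted and polyA libraries), whereas the other scalings shifted them by at most 0.05. Between library types it moved the median of all genes from 0.09 to 1.06, called 27 of the 42 genes, beside 3701 of all 6602, and lost the call of BRR2. It left 1 gene changed in LiCl relative to myriocin and put the median member change at 0.22 for LiCl relative to myriocin, 0.05 relative to fenpropimorph, −0.15 for myriocin relative to fenpropimorph, −0.26 for the intron deletion and −0.01 for GFP high relative to low. DESeq2 size factors put the first of these medians at 0.0040 and polyA libraries alone at 0.0013. Ribodepleted libraries alone gave medians of −0.01 against NaCl and 0.07 against glucose. A limit of 1.5-fold gave 4 changed genes against fenpropimorph, 8 against NaCl, 6 against glucose, 1 between myriocin and fenpropimorph and 1 in the intron deletion. PolyA libraries alone gave 2 against fenpropimorph, 5 against glucose and 5 in sorted against unsorted LiCl. The shares of all tested genes at the 1.5-fold limit and in polyA libraries alone are not given here, so these counts have no background. In the library type comparison, 5 genes were called without the replicate block, in every fit that left out 1 RNA sample, in the 5 wild-type cultures alone and with DESeq2. Omitting the filter changed no count of members, and it could not change the fold calls, since all 42 members passed the filter.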
